A study of Mus musculus with 20 samples.

Results

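Visceral yolk sacs whose conceptus had no neural tube defect (NTD) were compared between 3 arrays of conceptuses exposed to mono-2-ethylhexyl phthalate (MEHP) and 3 control arrays, over all 20794 genes measured. These 6 arrays are part of a set of 20, of which 10 hold yolk sacs and 10 hold embryos. The conceptuses were of the outbred CD-1 mouse strain and had been taken on gestational day 8 from dams given no treatment. They were then grown for 24 h in culture with 0.01% dimethyl sulfoxide (DMSO) as the control or with MEHP at 100 µg/ml, and were dissected on gestational day 9. The other yolk sac arrays are 1 control with NTD and 3 MEHP samples with NTD, and the embryo arrays fall into the same 4 groups. Exposure in culture bypasses the dam, and 1 dose and 1 time were used. The labels do not say how many conceptuses or litters a sample holds. The p-values thus measure the spread between these samples, which may be technical.

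The visceral yolk sac is the organ that feeds the conceptus before the placenta takes over. Its endoderm takes up proteins by endocytosis, breaks them down in lysosomes, and secretes plasma proteins and lipoproteins, much as liver does later. MEHP is the monoester formed in the body from the plasticizer di-2-ethylhexyl phthalate. In rodent liver it activates PPAR alpha, a nuclear receptor that switches on genes of fatty acid breakdown. Cyp1a1, a cytochrome P450 that oxidizes aromatic compounds, is the classical target of another sensor, the aryl hydrocarbon receptor, which binds DNA with its partner Arnt.

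Markers of the labelled tissue were high in all 6 arrays. Afp, the fetal plasma protein, stood at log2 levels of 13.21 to 13.31, the carrier protein Ttr at 13.40 to 13.50, and Hnf4a, a transcription factor of the endoderm, at 10.16 to 10.35. The summed level of 25 markers of the embryo proper was 8.77 to 8.80 in controls and 8.67 to 8.80 with MEHP, against 13.30 to 13.37 in control embryos, and 22 of the 25 lay near the level of nonspecific probe sets. Macrophage, endothelial and erythroid marker sums also overlapped between the groups, at 10.96 to 11.35 against 11.14 to 11.25, 13.13 to 13.22 against 13.11 to 13.22, and 14.98 to 15.39 against 15.04 to 15.39. The summed level of 21 trophoblast and decidua markers, 17 of them near the nonspecific level, was 8.46 to 9.05 in controls and 8.29 to 8.38 with MEHP. That of 17 parietal endoderm markers, 4 of them near that level, was 13.66 to 13.80 in controls and 13.81 to 13.83 with MEHP. Neither of these sums overlapped between the groups, and their part in the results below was not tested. In bulk tissue, fewer cells of a type and less RNA per cell cannot be told apart.

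Some array measures moved with exposure or with 1 array. Nonspecific probe sets averaged 3.44 to 3.57 on control arrays and 3.35 to 3.44 on MEHP arrays. Control 2 had the largest excess of 3′ over 5′ probe signal of the 6 (0.48 log2 units for Gapdh and 0.96 for Actb). The Y-linked gene Ddx3y stood at 8.03, 4.12 and 7.62 in controls 1 to 3 and at 4.15, 8.35 and 3.54 in MEHP 1 to 3, while Xist was high on all 6. In the deposited table the controls stand before the MEHP arrays of each tissue, so that array order and exposure cannot be told apart.

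With MEHP, 40 genes rose and 25 fell (limma, 3 arrays a group, Benjamini-Hochberg adjusted p under 0.05). These were 0.192% and 0.12% of all genes, or 0.313% together. All 65 had 6 arrays that did not overlap between the groups, and the median size of their change was 0.54 log2 units. The background without a test was wide: the MEHP arrays all lay above the controls for 9.65% of all genes and all below for 14%, and 17.1% of genes had an unadjusted p under 0.05 (1447 higher, 2107 lower). Cyp1a1 had the largest estimated rise, with an interval that overlaps those of AU018740, D13Ertd787e and Kcnq1ot1 and just meets that of Cidec. Cyp1a1 was also the sole gene with an adjusted p under 0.01. The next smallest adjusted p was 0.028. When any 1 of the 6 arrays was left out, 1 or 2 genes passed (2 without control 1 and without MEHP 1, and 1 without each of the others), and Cyp1a1 passed each time. The second gene was Iapp without control 1 and LOC552904 without MEHP 1. With the level of the nonspecific probe sets as a covariate, 0 genes passed, with the 65 differences keeping their sign. Under quantile normalization the split turned to 38 rises and 49 falls.

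**Figure D1:**
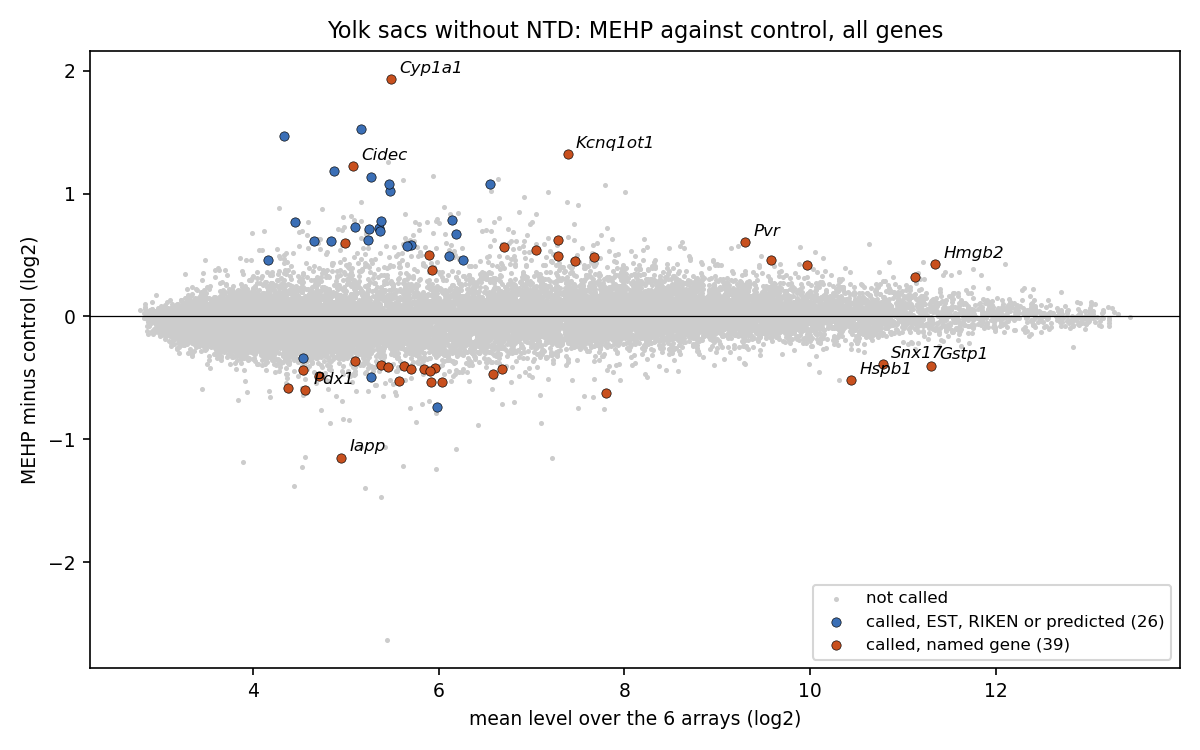
Each point is 1 of 20794 genes, with the mean log2 level over the 6 yolk sac arrays without NTD on the x axis and the log2 difference, MEHP minus control (3 arrays each), on the y axis. Coloured points are the 65 called genes, of which 26 are EST, RIKEN or predicted transcripts. Cyp1a1 lies highest among the called genes at 1.93 and Iapp lowest at -1.15.

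Brightly expressed genes and faint ones did not share a direction. Among genes at or below the median level (5.64 over the 6 arrays) the MEHP arrays lay all lower for 18.3% and all higher for 5%, with a median difference of -0.052. Among the other genes the shares were 9.59% and 14.3%, and the median was 0.013. Of the falls, 12 of 25 were such faint genes, and of the rises 19 of 40. The lower nonspecific level of the MEHP arrays goes in the same direction as the faint genes. Its part in their falls was not tested beyond the covariate fit above. That fit cannot fully separate the nonspecific level from exposure, since the level moves with exposure.

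Cyp1a1 was the leading gene. Its log2 level was 4.54, 4.72 and 4.32 in controls 1 to 3 and 6.49, 6.58 and 6.30 in MEHP 1 to 3. All MEHP arrays lay above every control, by more than the whole spread within either group. The rise was 1.93 ± 0.14 (SE, 3 arrays a group; 95% interval 1.63 to 2.24), a 3.82-fold increase (limma adjusted p = 0.00129). Without any 1 array it was 1.83 to 2.03 with an adjusted p of 0.00338 to 0.019. With the nonspecific probe sets as a covariate it was 1.98 but the call was lost (adjusted p = 0.119). The gene is represented by a single probe set. With a mean of 5.49 over the 6 arrays it counted as a faint gene, below the median of 5.64.

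The start region of Cyp1a1 is shown because its receptor binds a known short core, GCGTG, searched on both strands and set in capitals. The 250 bases before and 50 after the start (RefSeq, GRCm38.p6, chr9:57697363-57697662, plus strand, 5′ to 3′) hold 1 match. The core occurs in 32.4% of the 32851 mouse start regions of that length, and a match is a description of the letters, not a site.
Cyp1a1: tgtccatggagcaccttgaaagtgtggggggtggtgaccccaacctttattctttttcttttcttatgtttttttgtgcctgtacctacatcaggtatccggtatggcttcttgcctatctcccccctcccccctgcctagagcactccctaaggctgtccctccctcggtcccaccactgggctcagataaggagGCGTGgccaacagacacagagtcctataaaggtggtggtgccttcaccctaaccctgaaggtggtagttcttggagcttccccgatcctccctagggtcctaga

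The rest of the aryl hydrocarbon receptor genes gave another picture. Of the other 7 examined, 0 rose and 0 fell. The receptor Ahr differed by 0.04 ± 0.11 (adjusted p = 0.897) and its partner Arnt by -0.01 ± 0.06 (adjusted p = 0.967). The feedback repressors Ahrr and Tiparp, both induced by this receptor in other settings, differed by 0.08 ± 0.07 and -0.09 ± 0.07 (adjusted p = 0.548 and 0.547). Ahrr lay at 3.49 to 3.67 on the 6 arrays, close to the nonspecific level, so that this probe set says little. Cyp1b1 differed by 0.00 ± 0.11 and Cyp1a2, the liver relative of Cyp1a1, by -0.15 ± 0.08. Both were faint, at 3.99 to 4.43 and 3.96 to 4.32 on the 6 arrays, so that their lack of a call says little too. Nqo1, a quinone reductase that both this receptor and Nrf2 can switch on, stood at 5.75, 6.16 and 5.67 in controls and 5.06, 5.21 and 5.41 with MEHP. Its 3 MEHP arrays lay below all controls, opposite to Cyp1a1, but the difference did not pass (-0.64 ± 0.15, adjusted p = 0.0959).

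Of 30 measured cytochrome P450 and conjugation enzymes, Cyp1a1 rose, 0 fell and 29 did not pass (median difference -0.01, against -0.022 over all genes). Cyp3a13, a drug-oxidizing P450, was higher on all MEHP arrays at 0.63 ± 0.16 (adjusted p = 0.108). The drug-inducible liver P450 Cyp2b10 was lower on all of them at -0.44 (adjusted p = 0.126). Of 25 xenobiotic sensors and efflux transporters none passed (smallest adjusted p 0.108).

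**Figure D2:**
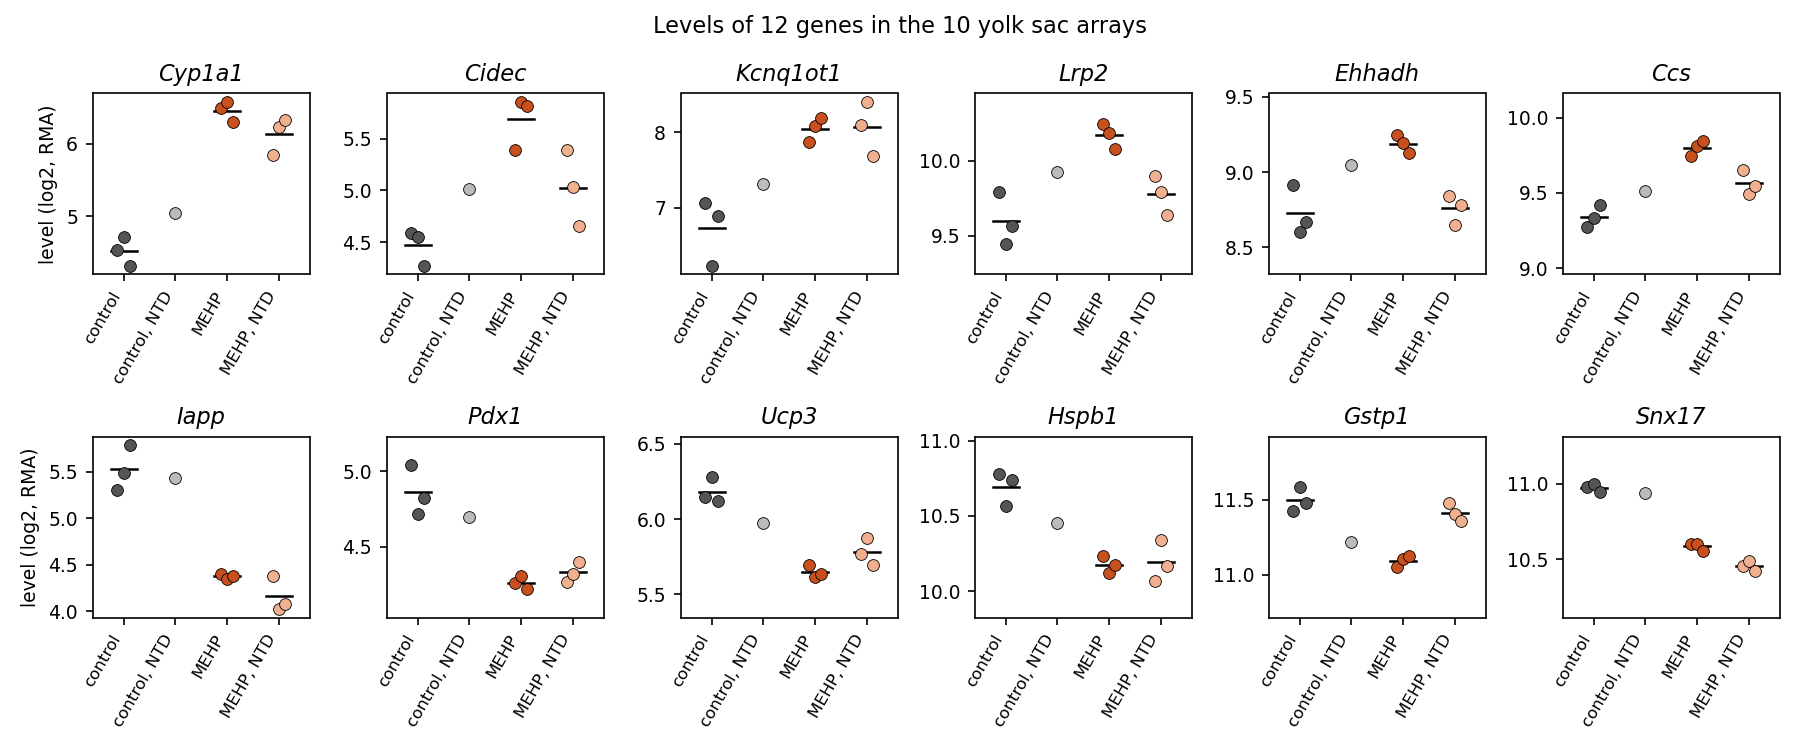
Log2 levels of 12 genes on the 10 yolk sac arrays: 3 controls, 1 control with NTD, 3 MEHP without NTD and 3 MEHP with NTD, each point 1 array and each bar a group mean. Cyp1a1, Cidec and Kcnq1ot1 stand above all 3 controls in every MEHP array without NTD, and Iapp and Pdx1 below.

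Genes of fatty acid breakdown, the liver targets of MEHP through PPAR alpha, mostly did not pass. Of 24 measured peroxisomal fatty acid oxidation genes 0 rose and 0 fell. Their median difference was 0.13 log2 units. Of the 24, 10 (41.7%) lay higher on all MEHP arrays, against 9.65% of all genes, while 0 lay lower on all, against 14%. Among genes above the median level the shares were 14.3% and 9.59%. The members of this list are expressed together in many tissues and are no replicates of each other. Ehhadh, the bifunctional enzyme of the peroxisomal pathway, stood at 8.91, 8.60 and 8.67 in controls and 9.24, 9.19 and 9.13 with MEHP (0.46 ± 0.09, adjusted p = 0.0609). Acaa1a, the thiolase that follows it, stood at 7.43, 7.64 and 7.37 and at 7.91, 7.97 and 7.87 (0.44 ± 0.08, adjusted p = 0.0541). Both thus had separated groups without passing.

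In mitochondria the picture was mixed. Of 26 measured genes of mitochondrial oxidation and ketone formation, Ucp3 fell, 0 rose and 25 did not pass (median 0.07). Ucp3, an inner membrane carrier named for uncoupling and raised by fatty acids in muscle, stood at 6.14, 6.28 and 6.12 in controls and 5.69, 5.61 and 5.64 with MEHP. Its groups lay apart by more than the spread within either (-0.53 ± 0.07, adjusted p = 0.028). The carnitine transferase Cpt1a differed by 0.14 ± 0.10 (adjusted p = 0.501) by its brightest probe set (mean 7.04). Its 2 other probe sets, at means of 6.61 and 6.06, differed by 0.71 ± 0.24 and 0.89 ± 0.18 (adjusted p = 0.16 and 0.0533 over all probe sets), so that the probe sets disagree in size. Pdk4, the kinase that blocks pyruvate entry, differed by -0.20 ± 0.11 (adjusted p = 0.37).

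Cidec rose among the 29 measured PPAR-responsive lipid genes, 0 fell and 28 did not pass (median 0.00). Cidec codes for a lipid droplet protein that helps droplets fuse into larger ones, and PPAR gamma raises it in mouse fatty liver. Its levels were 4.59, 4.55 and 4.27 in controls and 5.395, 5.86 and 5.82 with MEHP, with no overlap. The mean over these 6 arrays, 5.08, makes Cidec a faint gene. The rise was 1.22 ± 0.18, or 2.33-fold (adjusted p = 0.0333). It was 1.12 to 1.37 without any 1 array but passed in none of those 6 fits (adjusted p 0.06 to 0.139). The droplet coat protein Plin2 differed by -0.00 ± 0.07, the lipase inhibitor Angptl4 by -0.10 ± 0.11, the fatty acid binder Fabp1 by 0.30 ± 0.15 and the omega-hydroxylase Cyp4a14 by -0.08 ± 0.06, and none passed. A second, similarly bright probe set of Fabp1 differed by 0.58 ± 0.12 (adjusted p = 0.055 over all probe sets). The receptors showed no called difference either: Ppara 0.06 ± 0.08, Ppard -0.11 ± 0.10 and Pparg -0.19 ± 0.19. Of 15 receptors and partners in all, 0 passed (smallest adjusted p 0.132).

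RefSeq lists 2 starts for Cidec, on the minus strand of chromosome 6. The upstream one is shown for comparison with Cyp1a1, with the same core in capitals on either strand (GRCm38.p6, chr6:113435711-113436010, 5′ to 3′). It holds 1 match, and the other start region (chr6:113434715-113435014) also holds 1. The direct repeat read by PPAR and its partner RXR, searched on both strands as AGGTCA, any base and AGGTCA, was in neither and is in 0.0396% of all start regions.
Cidec: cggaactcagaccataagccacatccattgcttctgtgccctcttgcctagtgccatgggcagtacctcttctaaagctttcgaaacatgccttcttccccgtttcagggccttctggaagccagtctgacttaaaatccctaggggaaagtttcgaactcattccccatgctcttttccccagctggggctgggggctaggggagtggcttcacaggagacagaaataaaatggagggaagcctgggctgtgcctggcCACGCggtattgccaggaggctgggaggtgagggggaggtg

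Sterol synthesis genes resembled the peroxisomal ones. Of 26 measured, 0 passed (smallest adjusted p 0.0982), and the median was 0.17. On all MEHP arrays 8 (30.8%) lay higher and 0 lower, against 9.65% and 14% of all genes. Among genes above the median level the shares were 14.3% and 9.59%. Hmgcs1, an early enzyme of the pathway, differed by 0.31 (adjusted p = 0.145). Fatty acid synthesis genes (18 measured, median -0.04) and lipid droplet genes (22 measured, median 0.03) had 0 called.

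**Figure D3:**
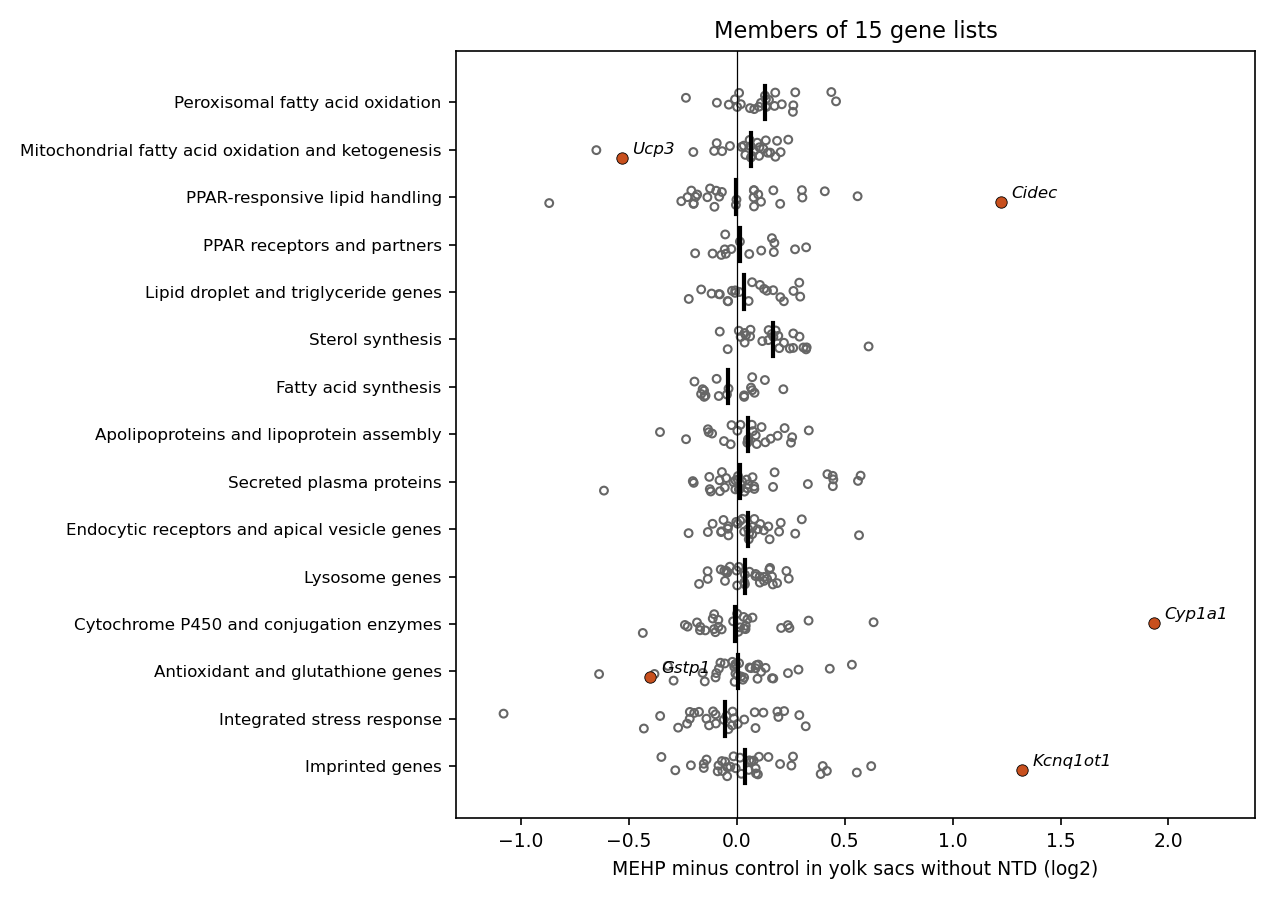
Log2 difference, MEHP minus control in yolk sacs without NTD, for the measured members of 15 gene lists. Each circle is 1 gene, filled circles are called genes and the black bar is the list's median. Medians lie between -0.05 (integrated stress response) and 0.17 (sterol synthesis), and 5 genes are filled.

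Iapp fell the most among called genes. It encodes amylin, the peptide that beta cells of the pancreas release with insulin. Its levels were 5.30, 5.48 and 5.78 in controls and 4.40, 4.34 and 4.38 with MEHP. The MEHP values were nearly equal, and all lay below the controls (-1.15 ± 0.12, 2.22-fold lower, adjusted p = 0.028). Leaving out an array gave -1.26 to -1.02, with 1 of 6 fits passing (adjusted p 0.0282 to 0.11). The other 3 probe sets of Iapp had mean levels of 3.10 to 3.49, near the nonspecific level, and differed by -0.13, -0.13 and 0.08. Pdx1, the homeodomain factor of pancreas and duodenum that can activate Iapp in beta cells, fell as well. It stood at 5.04, 4.72 and 4.82 in controls and 4.26, 4.31 and 4.22 with MEHP (-0.60 ± 0.08, adjusted p = 0.028). Pdx1 was faint in both groups, and Iapp, with a mean of 4.95 over the 6 arrays, counted as a faint gene too. The other probe set of Pdx1, fainter still (mean 3.92), differed by -0.04 ± 0.08, so that the call of Pdx1 rests on the brighter one. Of 5 yolk sac endocrine and peptidase genes these were the 2 that fell, 0 rose and 3 did not pass. Cndp1, a dipeptidase, lay higher on all MEHP arrays (0.39 ± 0.10, adjusted p = 0.11), Gatm, which makes the creatine precursor, differed by -0.28 and the protease Ctse by 0.13.

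The Iapp start region is shown because homeodomain factors such as Pdx1 read a short core, TAAT, set in capitals on either strand (RefSeq, GRCm38.p6, chr6:142298175-142298474, plus strand, 5′ to 3′). It holds 5 matches, of which 2 overlap. The core is in 58% of all start regions of this length, so that its presence is common.
Iapp: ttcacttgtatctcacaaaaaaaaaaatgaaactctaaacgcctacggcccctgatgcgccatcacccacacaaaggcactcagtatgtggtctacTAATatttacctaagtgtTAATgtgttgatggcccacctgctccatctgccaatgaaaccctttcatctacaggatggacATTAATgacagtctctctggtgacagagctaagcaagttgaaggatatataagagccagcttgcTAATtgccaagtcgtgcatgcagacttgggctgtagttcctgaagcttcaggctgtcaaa

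1 imprinted gene rose, a long noncoding RNA. Kcnq1ot1, the paternally expressed RNA that silences neighbouring genes on chromosome 7, rose from 7.06, 6.23 and 6.89 in controls to 7.87, 8.08 and 8.19 with MEHP. Every MEHP array lay above every control, and control 2 was the lowest. The rise was 1.32 ± 0.22, or 2.5-fold (adjusted p = 0.0444), and 1.07 to 1.49 without any 1 array, where it passed in 0 of 6 fits (adjusted p 0.0581 to 0.155). Of 4 further probe sets, 3 with mean levels of 6.22 to 7.22 also differed by 1.02 ± 0.12, 1.05 ± 0.17 and 0.82 ± 0.17, and the fourth, near the nonspecific level, by -0.14. The genes it can silence did not pass: Cdkn1c, a cell cycle inhibitor, differed by 0.15, Phlda2 by 0.10, Slc22a18 by 0.26 and Kcnq1 by 0.06. Airn, the antisense RNA at Igf2r, stood at 7.24, 6.87 and 7.31 and at 7.73, 7.62 and 7.94 (0.62 ± 0.13, adjusted p = 0.0754). Mirg, from the Dlk1 and Meg3 domain, stood at 8.94, 8.76 and 8.91 and at 9.34, 9.33 and 9.61 (0.56 ± 0.13, adjusted p = 0.0838). Of 36 measured imprinted genes Kcnq1ot1 alone rose, 0 fell, and the median was 0.04. On all MEHP arrays 9 (25%) lay higher and 2 (5.56%) lower, against 9.65% and 14% of all genes. Among genes above the median level the shares were 14.3% and 9.59%.

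Transcripts known only by an EST, RIKEN or predicted name accounted for 23 rises of 40 and 3 falls of 25, against 18.5% of all genes. Of the 10 rises above 1 log2 unit, 7 were of this kind. AU018740 rose from 4.56, 4.004 and 4.65 to 5.53, 6.09 and 6.18 (1.53 ± 0.24, adjusted p = 0.0378). D13Ertd787e rose from 3.80, 3.26 and 3.75 to 4.80, 5.17 and 5.23 (1.47 ± 0.21, adjusted p = 0.031). Its control values lay at the nonspecific level, so that the size and rank of this rise are uncertain, and another of its probe sets differed in the opposite direction. D9Ertd306e rose from 4.74, 4.44 and 4.92 to 5.76, 5.70 and 6.05 (1.14 ± 0.15, adjusted p = 0.028). These are faint transcripts of unassigned function. Control 2, the array with the largest 3′ excess, was the lowest of the 6 for 16 of these 23 rises and for 7 of the 17 rises of named genes. As the called groups do not overlap, the lowest array of a rise is always 1 of the 3 controls. The share over other genes with separated groups was not computed. The part of RNA quality in them was not tested.

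Among named genes above the median level, Pvr, the poliovirus receptor and a cell adhesion molecule, rose from 9.02, 9.14 and 8.83 to 9.57, 9.70 and 9.54 (0.60 ± 0.09, adjusted p = 0.031). Its 6 other probe sets ranged from -0.09 to 0.36, so the rise rests on 1 of 7. Hmgb2, a chromatin protein of dividing cells, rose from 11.15, 11.05 and 11.19 to 11.57, 11.51 and 11.59 (0.42 ± 0.06, adjusted p = 0.0356), and its second bright probe set differed by 0.24. All 6 arrays separated. The 32 cell cycle genes beside it had 0 called and a median of -0.03. Coro7, which acts in Golgi traffic, rose by 0.42 ± 0.06, and its 5 other probe sets differed by 0.29 to 0.54. Sem1, a small proteasome lid subunit, was called by a rise of 0.32 ± 0.05, but its other probe set, equally bright (mean 11.13 against 11.12), differed by 0.02 ± 0.05, so that the call rests on 1 of 2. Zfp800 was called at 0.56 ± 0.08, while the probe set that was brightest on these 6 arrays (mean 7.10) differed by 0.03 ± 0.10 and another at 6.63 by 0.24 ± 0.08. Rises were also called for the protease Capn10 (0.54 ± 0.09, with 0.40 ± 0.14 by a second probe set), Vwce (0.48 ± 0.08) and Gigyf1 (0.45 ± 0.07).

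Gstp1 and Hspb1 fell at high level. Gstp1, a glutathione transferase that conjugates electrophiles, stood at 11.43, 11.58 and 11.48 in controls and 11.05, 11.11 and 11.13 with MEHP (-0.40 ± 0.06, adjusted p = 0.0398). Hspb1, the small heat shock protein that binds actin and unfolded proteins, stood at 10.78, 10.56 and 10.74 and at 10.23, 10.12 and 10.18 (-0.52 ± 0.09, adjusted p = 0.043), and its second probe set gave -0.53. In both genes all 6 arrays separated. Ccs, the chaperone that loads copper into superoxide dismutase, rose instead, from 9.28, 9.33 and 9.42 to 9.74, 9.81 and 9.85 (0.46 ± 0.07, adjusted p = 0.031). Its client Sod1 lay higher on all MEHP arrays by 0.24 (adjusted p = 0.101). Cbr3, a carbonyl reductase, fell by 0.49 on the log2 scale at a faint level. Of 37 antioxidant and glutathione genes Gstp1 fell, 0 rose and 36 did not pass (median 0.00). Of 24 heat shock and DnaJ genes Hspb1 fell, 0 rose and 23 did not pass (median -0.01). Hmox1, the heme oxygenase that answers oxidative stress, differed by 0.03 ± 0.20, and the metallothioneins Mt1 and Mt2 by 0.00 ± 0.05 and 0.03 ± 0.06. Genes of the integrated stress response, a list of Atf4, its upstream kinases and its targets (30 measured), and the unfolded protein response (24 measured) had 0 called, with medians of -0.05 and -0.06. Ddit3 differed by -0.14 ± 0.13 and Atf4 by 0.09 ± 0.06.

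In the uptake route of the endoderm, Snx17 fell. It is a sorting nexin that returns receptors from endosomes to the cell surface. Its levels were 10.95, 10.98 and 11 in the 3 controls and 10.60, 10.60 and 10.56 with MEHP and the values within each group were nearly equal (-0.39 ± 0.05, adjusted p = 0.028). Gnptg, a subunit of the enzyme that tags lysosomal enzymes with mannose phosphate, rose from 5.63, 5.65 and 5.68 to 6.196, 6.04 and 6.22 (0.50 ± 0.07, adjusted p = 0.028). Tfec, a relative of the lysosomal regulator Tfeb, rose by 0.50 ± 0.07 (adjusted p = 0.0333). Lrp2, the endocytic receptor megalin, stood at 9.79, 9.45 and 9.57 in controls and 10.24, 10.18 and 10.08 with MEHP. Its groups did not overlap, and it just missed the threshold (0.57 ± 0.10, adjusted p = 0.051), with a second probe set at 0.45 ± 0.10. Its partners Cubn and Amn differed by 0.20 ± 0.09 and -0.04 ± 0.06. A second probe set of Cubn differed by 0.44 ± 0.16. Of 30 endocytic genes 0 passed (median 0.05), with 6 (20%) higher and 1 (3.33%) lower on all MEHP arrays. Of 31 lysosome genes 0 passed (median 0.04), with 7 (22.6%) higher and 2 (6.45%) lower. Over all genes these shares were 9.65% and 14%, and among genes above the median level 14.3% and 9.59%.

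Secreted plasma proteins, the main products of this endoderm, had 0 called of 35 measured (median 0.01, summed level 15.77 to 15.84 in controls and 15.83 to 15.89 with MEHP). Afp differed by 0.04 ± 0.06, Ttr by -0.01 ± 0.05 and Apob, the core protein of lipoproteins, by 0.11 ± 0.08. These 3 probe sets lie near the top of the measured range. A second probe set of Apob below that range (mean 9.09) differed by 0.95 ± 0.26 (limma adjusted p = 0.102 over all probe sets). The fibrinogen chain Fgb stood at 10.58, 10.69 and 10.62 in controls and 11.15, 11.14 and 10.93 with MEHP (0.44 ± 0.08, adjusted p = 0.0541). The clotting factor F10 lay higher on all MEHP arrays too (0.57 ± 0.14, adjusted p = 0.0921). In the other direction the heme carrier Hpx differed by -0.62 ± 0.25 (adjusted p = 0.257), the largest difference of the list, and Ahsg, the fetal glycoprotein fetuin A, by -0.20 ± 0.07 (adjusted p = 0.207). In all, 4 of the 35 lay higher on all MEHP arrays (11.4%, against 9.65% of all genes) and 3 lower (8.57%, against 14%). Among genes above the median level the shares were 14.3% and 9.59%. Of 18 endoderm transcription factors Pdx1 fell, 0 rose and 17 did not pass (median -0.02), and Hnf4a differed by 0.01 ± 0.09, with 0.12 ± 0.07 by a second bright probe set and 0.65 ± 0.13 (adjusted p = 0.0516 over all probe sets) by one at a mean of 6.70.

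Tbx5, Dll1 and Sema3f, which act in development, fell too. Tbx5, a limb and heart T-box factor, went from 6.04, 6.11 and 6.02 to 5.56, 5.66 and 5.67 (-0.43 ± 0.07, adjusted p = 0.043). The Notch ligand Dll1 went from 5.88, 5.82 and 5.79 to 5.31, 5.39 and 5.22 (-0.52 ± 0.07, adjusted p = 0.028). The guidance ligand Sema3f fell by 0.43 on the log2 scale (SE 0.06, adjusted p = 0.028), with its fainter probe sets at -0.02 and -0.18. Dll1 lay just below the median level. Pmf1, a kinetochore protein, fell by 0.63 on the log2 scale, but its other probe set (mean 6.24) differed by -0.06 ± 0.09. Eepd1, a DNA repair nuclease, fell by 0.53 on the log2 scale, while its other probe set (mean 5.17) differed by -0.06 ± 0.08. Further named falls above the median level were Rcsd1 (-0.47 ± 0.06), Zfp287 (-0.44 ± 0.07), the actin nucleator Spire2 (-0.42 ± 0.07) and the hearing scaffold Whrn (-0.42 ± 0.07). Of 43 signalling genes of the Wnt, BMP, FGF, Notch and hedgehog pathways in a list that does not hold Dll1, 0 passed (median -0.06).

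Across all lists, 1079 of 1091 members were measured, and 33 of 41 lists had no called member. The DNA methyltransferases did not pass: Dnmt1 -0.02 ± 0.08, Dnmt3a -0.01 ± 0.12 and Dnmt3b -0.21 ± 0.12. Of 31 respiratory chain genes 0 passed, while 10 (32.3%) lay higher on all MEHP arrays and 2 (6.45%) lower, with a median of 0.04 and a highest difference of 0.17. The shares over all genes were 9.65% and 14%, and among genes above the median level 14.3% and 9.59%. Of 31 p53 and apoptosis genes 0 passed, 2 (6.45%) lay higher on all MEHP arrays and 7 (22.6%) lower, against the same shares, among the latter the survival gene Bcl2 (-0.40, adjusted p = 0.0538) and the cell cycle inhibitor Cdkn1a (-0.29, adjusted p = 0.132), with a median of -0.11. Erythroid genes (29 measured) had neither a call nor a member with separated groups.

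The embryos of the same exposure groups, on other arrays, gave a direct comparison of tissues. The labels do not say whether they belonged to the same conceptuses. Of the 40 yolk sac rises, 23 (57.5%) were also called higher in embryos without NTD, where 3.82% of all genes were called higher. They were 2.9% of the 794 embryo rises. The share was 19 of 23 (82.6%) among the EST, RIKEN and predicted rises, against 5.3% of all genes so named, and 4 of 17 among the others. Of the 25 falls 8 (32%) were also called lower in embryo, where 5.9% of all genes were, and they were 0.652% of the 1227 embryo falls. In embryo Kcnq1ot1 rose by 1.48 ± 0.17 (adjusted p = 0.00338) and Pvr by 0.69 ± 0.13 (adjusted p = 0.0149). D13Ertd787e rose by 1.91 ± 0.22 there. Pdx1 fell by 0.34 on the log2 scale (SE 0.07, limma adjusted p = 0.022), from a mean of 4.16 to 3.82, not far above the nonspecific level. Iapp differed by -0.40 ± 0.14 (adjusted p = 0.0896).

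The difference between tissues itself passed for 16 genes (0.0769% of all, limma over 20 arrays; 2715 genes, or 13.1%, had an unadjusted p under 0.05), and 4 of these were also called in yolk sac: Cyp1a1, Cidec, A2ml1 and Mir1199. The test reuses the yolk sac arrays that gave those calls. In embryo the nonspecific level itself went from 3.51 to 3.38. Cyp1a1 in embryo went from a mean of 4.07 to 3.75, near that level, and Cidec from 3.21 to 3.07, below it. The passing differences of both thus rest on the yolk sac rise, and these probe sets say little of a response in embryo. A2ml1, a protease inhibitor of the alpha-2-macroglobulin family, went from 4.55, 4.71 and 4.83 to 5.40, 5.23 and 5.26 in yolk sac (0.60 ± 0.08). In embryo it fell by 0.51 on the log2 scale. Its embryo means, 4.36 and 3.86, also lay not far above the nonspecific level, so that this fall says little. Mir1199, the host transcript probed for a microRNA, rose by 0.63 ± 0.10 in yolk sac and fell by 0.59 on the log2 scale in embryo. The mature microRNA was not measured by this probe set. Creb3l3, a membrane-bound factor of lipid genes in liver and gut, differed by 0.11 ± 0.09 in yolk sac (8.73, 8.80 and 8.63 against 8.74, 8.96 and 8.79) and by -1.22 ± 0.16 in embryo, a difference between tissues of 1.33 ± 0.20 (adjusted p = 0.0207). Hpn, a membrane protease, fell by 0.58 and F10 by 0.46 on the log2 scale in embryo. Their differences between tissues were 0.93 ± 0.15 and 1.03 ± 0.18 (limma adjusted p = 0.0237 and 0.0477). The embryo means of F10, 4.47 and 4.02, were again not far above the nonspecific level, so that its fall there says little. The count of 16 became 3 to 259 when any 1 of the 12 arrays compared was left out, with 259 without embryo control 3.

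**Figure D4:**
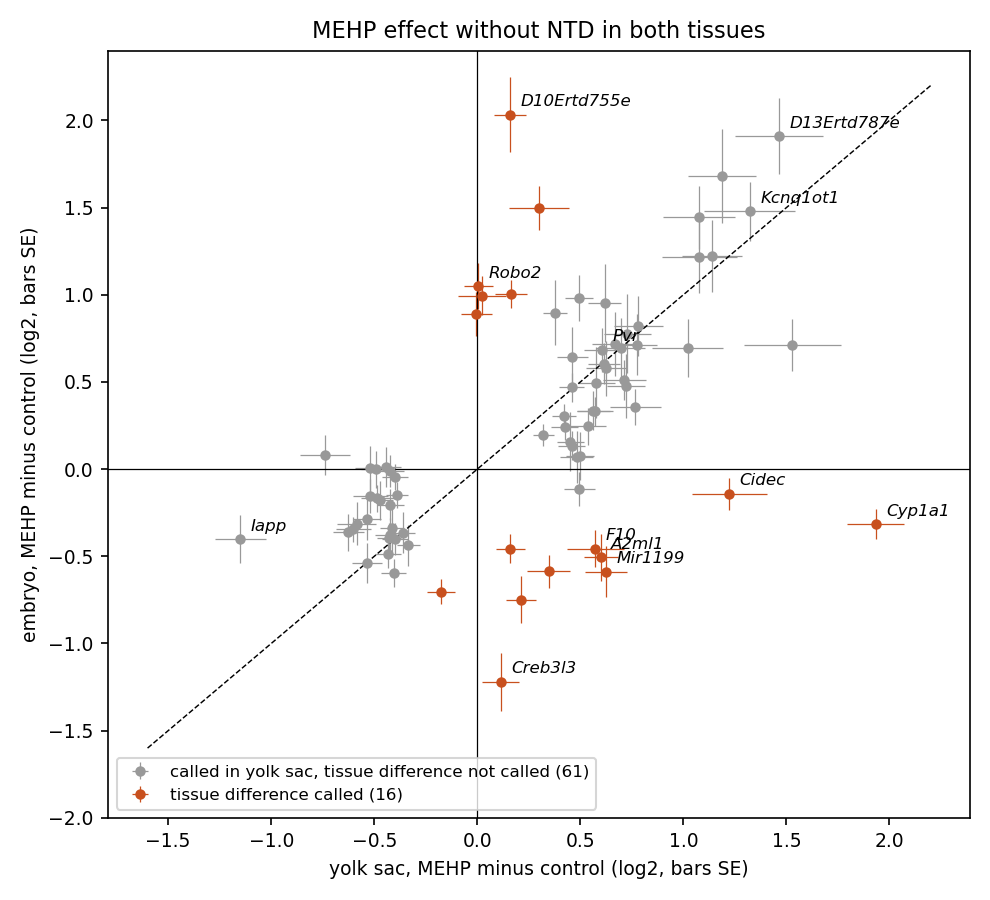
Log2 difference, MEHP minus control without NTD, in yolk sac (x axis) and embryo (y axis) for 77 genes called in yolk sac or by the difference between tissues, with SE bars (3 arrays a group). The dashed line marks equal differences. Kcnq1ot1 and D13Ertd787e lie at the upper right, at 1.32 and 1.47 in yolk sac, while Cyp1a1 lies at 1.93 in yolk sac and -0.31 in embryo.

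MEHP yolk sacs with NTD were set beside those without. No gene passed between the 2 MEHP groups by limma (0% of all genes, smallest adjusted p 0.0878), and 2002 genes (9.63%) had an unadjusted p under 0.05. With empirical Bayes variances that followed the level and were robust, 13 genes passed, and 30 in a fit over all 20 arrays. The 5 genes with the smallest p were Ccdc112 (0.59 higher with NTD), the hedgehog effector Gli3 (0.48), the complement inhibitor Cd55 (0.45), Cndp1 (0.72) and Spin2c (0.48). Cd55 stood at 6.91, 6.94 and 6.83 in controls, 7.26, 7.31 and 7.15 with MEHP without NTD, and 7.68, 7.66 and 7.73 with MEHP and NTD.

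The called genes had these levels in yolk sacs with NTD, in a comparison that shares its controls with the main one. Cyp1a1 was at 5.85, 6.24 and 6.33, Kcnq1ot1 at 8.10, 8.41 and 7.69, and Iapp at 4.38, 4.02 and 4.08, all beyond the 3 controls. Snx17 was at 10.46, 10.49 and 10.42 and Pdx1 at 4.27, 4.32 and 4.40. Cidec was at 5.39, 5.04 and 4.66, above the 3 controls (4.27 to 4.59). Gstp1 was at 11.48, 11.41 and 11.36, overlapping the controls at 11.43 to 11.58. Lrp2 with NTD was at 9.90, 9.79 and 9.64 and Ehhadh at 8.84, 8.65 and 8.78, again overlapping controls. The 1 control yolk sac with NTD stood between the groups for Cyp1a1 (5.05), Cidec (5.02) and Kcnq1ot1 (7.32), and among the controls for Iapp (5.44). For Gstp1 it stood below them (11.22). Of the 65 called genes, 61 had all 3 MEHP arrays without NTD beyond that array in the called direction. Those MEHP arrays also gave the calls, so that this count is largely fixed by the choice of genes and is no separate support. Its share over all genes was not computed.

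The authors' deposited table pools NTD and compares 6 MEHP with 4 control yolk sac arrays. It lists Cyp1a1 at a log2 difference of 1.64 (p-value 1.43e-07, adjusted 0.00142) and Iapp at -1.23 (adjusted 0.00142). In the authors' deposited table Kcnq1ot1 stands at 1.18 (adjusted 0.0119) and Snx17 at -0.44 (adjusted 0.0042). Gstp1 stands there at -0.17 (adjusted 0.325) and Cidec at 0.75 (adjusted 0.074). The authors' deposited table has 1821 probe sets with an adjusted p under 0.05, and shares all 6 arrays of the main comparison.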

How the data were processed

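Gene expression was measured on Affymetrix mouse arrays. The authors deposited log2 values for 45141 probe sets, and the submitters' processing notes name RMA, R 2.15.1 and limma. The authors' comparison tables hold log2 differences, p-values and their adjusted forms, per the file headers. Starting signals were not used here. Groups follow those tables, since among 1022 ways to part a tissue's 10 arrays the split used fitted best in each of 4 tables. Headings of another deposited copy of the values would give 13 of 20 arrays, and all 6 compared here, another group. Arrays are numbered in table order, as names only.

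Leaving out 104 control probe sets and 6670 without a symbol, each of 20794 genes took its probe set with the highest mean over 20 arrays. Of 38367 probe sets with a symbol, 35403 matched RefSeq (GRCm38.p6) by Entrez identifier and took its symbol. limma 3.58.1 (R 4.3.3, data.table, version 1.17.8) fitted 4 group means over the 10 yolk sac arrays, with Benjamini-Hochberg adjustment over all genes at 0.05, and was tested on simulated data. Tissues were compared by 8 means over 20 arrays, treated as independent. Figures were drawn with matplotlib 3.10.9 in Python 3.11.15. A nonspecific level is the mean of 23 control probe sets, and a dim or faint gene is one at or below the median. The number of arrays limits precision (median SE 0.08).

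The comparison, the 41 lists and the tests were chosen with earlier results of these data known. Named genes are the 12 largest called rises and 12 largest falls above the median level without an EST, RIKEN or predicted name, called list members and fixed key genes, the genes of the tissue difference also called (at most 5, here 4), and the 5 smallest p for NTD. Others named were picked after their values were seen. Cyp4a10 was not measured. Alternatives are listed at the end. Some measured genes are not reported here.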

Additional observations from a re-analysis of the deposited data

Results flagged for a closer look

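The effect of MEHP without NTD differed between yolk sac and embryo for 5 named genes by a test of the difference itself (limma over 20 arrays, 3 arrays a group, adjusted p under 0.05). The difference, yolk sac minus embryo, was 2.25 for Cyp1a1, 1.11 for A2ml1, 1.33 for Creb3l3, 1.36 for Cidec and 1.21 for Mir1199. In embryo Cyp1a1 (means 4.07 and 3.75) lay near and Cidec (3.21 and 3.07) below the nonspecific level, which itself went from 3.51 to 3.38, so that their values say little of a response in embryo. For Cyp1a1, A2ml1 and Mir1199 all 3 MEHP yolk sacs lay above the control yolk sacs, while the embryo means fell. The embryo means of A2ml1, 4.36 and 3.86, also lay not far above the nonspecific level, so that its fall says little. For Creb3l3 the yolk sac groups overlapped and the embryo mean fell from 6.004 to 4.78. Groups of 3 arrays were not screened for outlying samples.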

How the results depend on the processing

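Of 65 genes called in the main comparison, 59 remained of 87 under quantile normalization, 57 of 60 under cyclic loess, 41 of 72 with the mean of a gene's probe sets and 50 of 90 with the 6 compared arrays alone. Without dim genes, a fit that did not hold Cyp1a1, Cidec or Iapp, 28 were called. With probe sets tested singly 389 were called, with trended and robust variances 199, with all 20 arrays in 1 fit 191, and at an adjusted p under 0.01 1. With the nonspecific covariate 0 were called (the 65 differences kept their sign), and 0 with groups from the sample headings. Leaving out 1 array gave 1 to 2. For the tissue difference, 16 became 10 under quantile normalization, 3 without dim genes, 76 probe sets, 45 with means of probe sets, 9 with the covariate, 9662 by the headings and 3 at 0.01, and 3 to 259 when 1 array was left out. For NTD among MEHP yolk sacs, 0 became 13 with trended and robust variances, 30 with all 20 arrays and 6510 by the headings, and 0 to 1 without 1 array (1 without MEHP 3). By the headings, which mix tissues, the sign turned for 19 named genes: A2ml1 -1.07, Capn10 -0.39, Ccs -1.35, Cidec -1.54, Coro7 -1.25, Cyp1a1 -1.72, Gnptg -0.47, Gstp1 0.65, Iapp 0.0405, Mir1199 -1.66, Pmf1 0.0171, Pvr -1.83, Rcsd1 0.96, Sema3f 0.0758, Tbx5 0.72, Tfec -1.91, Vwce -2.41, Whrn 0.21, Zfp287 1.01. The cause of the other changes was not tested. Among named genes, values under the alternatives otherwise kept their side of the threshold in 745 fits, lost it in 237 and gained it in 7. No paired analysis was possible because the columns carry no replicate numbers and the numbers used are names only. The number of arrays and the signal over background limit what faint genes can show.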
